A study of Mus musculus with 49 samples.

Results

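Voltage-gated ion channel genes and their close relatives were examined in 49 single neurons of the mouse primary somatosensory cortex. The genes were chosen by symbol (Kcn, Scn, Cacn and Hcn genes). The rule used no measured value, but was set with earlier results of these data known. The expression table had already lost its rarest genes, and 73 of the 9020 genes that it lists were members. Of these, 45 were potassium channel genes, 8 were sodium channel genes, 18 were calcium channel genes and 2 were Hcn genes. All 49 neurons belonged to 1 condition: wild-type CD1 mice received FlashTag (FT), a dye that marks progenitors dividing at the ventricular surface, at E13.5 (embryonic day), and the contents of labeled cells were drawn into a patch pipette at P7 (postnatal day). The cells were thus isochronic, that is, born at about the same time. They were chosen under the microscope by the brightness of the dye, and the labels do not tie them to animals. The 49 cells therefore counted as 1 sample, and differences between cells are described without tests. Levels are RPM, the reads of a gene scaled to a common total per cell, and a gene was counted in a cell from 10 RPM, because single reads can come from other cells sequenced in the same library pool.

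These channels set how a neuron fires. Sodium channels carry the upstroke of the action potential, potassium channels return the membrane to rest and set the firing threshold and rate, and calcium channels couple voltage to transmitter release, dendritic signals and gene expression. Hcn channels open upon hyperpolarization and carry Ih, the current recorded through the pipette in these cells before their contents were taken. In each family a pore-forming subunit conducts the ion, while accessory subunits change its gating or its transport to the membrane. The symbols also bring in potassium channels that voltage does not gate (inward rectifiers, two-pore and calcium- or sodium-activated channels), the Cacng genes, most of which act on AMPA receptors, and noncoding transcripts.

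The cells differed strongly in depth and some held markers of other classes. Reads per cell had a lowest value of 209850, a median of 1240101 and a highest of 35342325, so that 1 read stood for 4.77 RPM in the shallowest cell and 0.0283 RPM in the deepest. All 49 cells reached 10 RPM for all 4 neuronal markers (Snap25, Syt1, Stmn2, Map2). At least 2 excitatory markers were found in 35 cells, at least 2 inhibitory markers in 17, at least 2 astrocyte markers in 6, at least 2 oligodendrocyte lineage markers in 6 (3 of the 5 genes listed) and at least 2 microglial markers in 9 (4 of the 5 listed). The summed level of the inhibitory list ranged from 0.592 to 6185 RPM over the cells, that of the astrocyte list from 0 to 1673 RPM, that of the oligodendrocyte lineage list from 0 to 3900 RPM and that of the microglial list from 0 to 3210 RPM. Cell 12 (pool 2) held at least 2 markers of each of these classes. It also had the most channel genes at 10 RPM (57) and was the only cell with a read of all 73. Without it the median number of channel genes per cell was 27.5 instead of 28, and the median summed level was 3687 instead of 3638 RPM. No 2 cells shared identical values. Hemoglobin genes took between 0.00278 and 68.8% of a cell's reads.

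Fewer channel genes than listed genes in general were found in most of the cells. Of the 73, 21 (28.8%) were present in at least 25 of the 49 cells, against 38.2% of all listed genes (3442 of 9020). Without values under 5% of the most reads in another cell of the pool, which could be exchanged reads, 13 members (17.8%) and 29.5% of listed genes were present that widely. The median member was present in 18 cells (range 3–40) and the median listed gene in 20. Every listed gene reached 100 RPM in at least 2 cells, so that the rarest genes had been removed from the table before any of these counts, and 14 members reached that level in exactly 2 cells. The classes differed: 5 of 8 sodium genes, 8 of 18 calcium genes and 7 of 45 potassium genes were present in at least 25 cells. Scn2a was the only member with a read in all 49 cells, whereas 731 listed genes had one. Members at 10 RPM were found in cells of all 5 library pools for 56 genes.

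**Figure D1:**
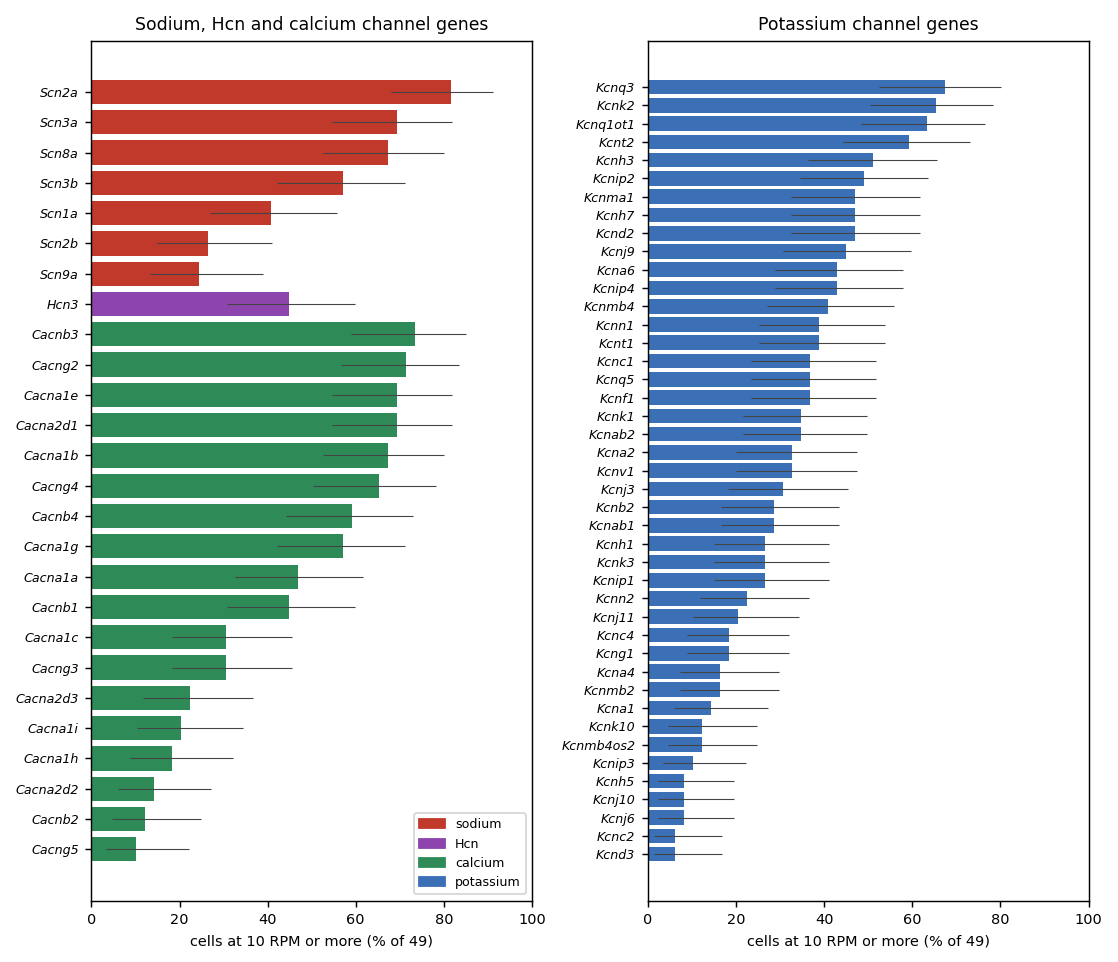
Percent of the 49 cells in which each of 69 of the 73 channel genes reached 10 RPM, by class. The horizontal axis starts at 0, and lines are exact 95% intervals that cover the counting of cells only. Scn2a leads with 40 cells, and the potassium genes Kcnc2 and Kcnd3 are last with 3 cells each.

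Single neurons also differed in how many channel genes they held. A cell had between 6 and 57 of the 73 genes at 10 RPM, with a median of 28. The channel genes found followed the number of genes found in general (Pearson's r = 0.873 and Spearman's rho = 0.837 over 49 cells, which share pools and differ in depth). A median of 38.4% of members was present per cell, against 45.9% of listed genes, and the share of members was the lower in 41 of the 49 cells. The summed level of all members was lowest in cell 25 (427 RPM), had a median of 3638 RPM and was highest in cell 32 (11726 RPM). In median, potassium genes summed to 1861 RPM, calcium genes to 977 RPM, sodium genes to 639 RPM and Hcn genes to 59.3 RPM. Cell 32 (pool 2) held the highest value of 8 members, among them Kcnq3 (968 RPM), Cacna1b (564 RPM) and Kcnip1 (643 RPM). It had 4 of the 5 inhibitory markers. The median number of members per cell lay between 27 and 29 in all 5 pools.

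**Figure D2:**
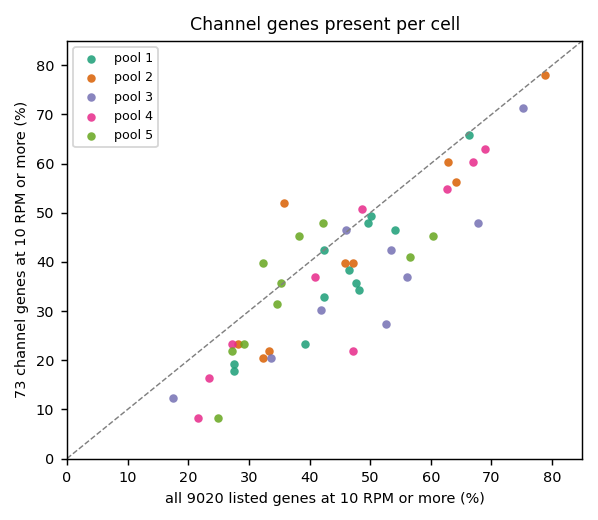
Share of the 73 channel genes (vertical, %) against the share of all 9020 listed genes (horizontal, %) at 10 RPM or more, 1 point per cell, coloured by library pool, with a dashed line where both are equal. In 41 of the 49 cells the share of channel genes is below that of all genes.

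Sodium channel genes were the most widely found class, led by 3 of the 5 listed pore-forming genes. Scn2a (Nav1.2, a main channel of the initial segment in young excitatory neurons) was present in 40 of 49 cells (81.6%, exact 95% interval 68.0–91.2%), with a lowest value of 2.07 RPM, a median of 170 RPM and a highest of 1257 RPM. Scn3a (Nav1.3, high in the embryonic brain) was present in 34 cells, with a lowest value of 0, a median of 117 RPM and a highest of 732 RPM. Scn8a (Nav1.6, which takes over at the initial segment and nodes of mature neurons) was present in 33 cells, with a lowest value of 0, a median of 53.7 RPM and a highest of 1191 RPM. The intervals of these 3 shares overlapped, but the shares come from the same cells, so the overlap does not compare them. Scn2a was present without Scn3a in 10 cells, and Scn3a without Scn2a in 4. For Scn2a and Scn8a these counts were 11 and 4. Scn1a (Nav1.1, prominent in fast-spiking interneurons) was present in 20 cells, with a median of 7.15 RPM and a highest of 801 RPM, and all 20 of these cells also held Scn2a. Scn9a (Nav1.7, best known from sensory neurons) was present in 12 cells, with a median of 0.486 RPM and a highest of 428 RPM. Scn2a, Scn3a and Scn8a were present together in 24 cells, Scn2a with Scn3a but not Scn8a in 6, Scn2a with Scn8a but not Scn3a in 5, Scn2a as the only one of the 3 in 5, and none of the 3 in 4 cells.

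Within a neuron, a single pore gene often took most of the sodium channel reads. Over the 44 cells with at least 50 RPM in the 5 pore genes, Scn2a was the leading gene in 22, Scn3a in 12, Scn8a in 7, Scn9a in 2 and Scn1a in 1. With each gene divided by its exonic length the counts were 22, 13, 6, 2 and 1. Reads came from the 3′ ends of transcripts, so they need not scale with that length. Counts per exonic length, here and below, are therefore an alternative scale and not a correction. The leading gene took over 50% of the summed RPM in 27 of these cells and over 90% in 8. Those 8 cells all had fewer reads than the median cell (209850 to 1236063). In cell 28, at 100%, the pore genes held 69 reads. Whether depth bears on these shares was not tested. The median share of Scn2a was 38.3% (range 0.629–100%), that of Scn3a 23.7% (range 0–94.9%) and that of Scn8a 12.04% (range 0–94.8%).

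**Figure D3:**
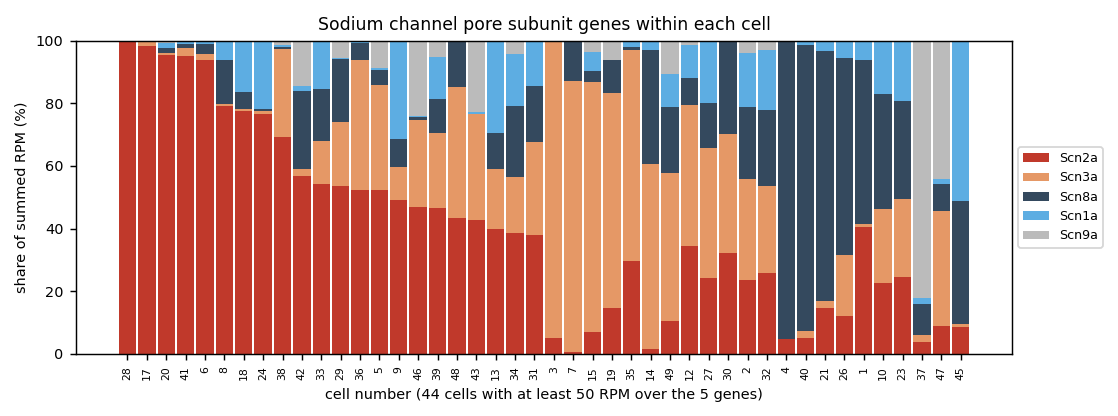
Share of the summed RPM (vertical, %) of the 5 sodium channel pore genes in each of the 44 cells with at least 50 RPM over them, ordered by leading gene and its share. Cells led by Scn2a (22), Scn3a (12) and Scn8a (7) all occur, and in 8 cells a single gene exceeds 90%. These 8 cells all have fewer reads than the median cell.

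All of these pore genes but Scn8a lie in a cluster on mouse chromosome 2. On GRCm38, Scn3a spans 65457118 to 65567627 on the minus strand, and Scn2a spans 65620771 to 65767447 on the plus strand, 53.1 kb away. Scn1a (66270778 to 66440840) and Scn9a (66480080 to 66634962) follow, 39.2 kb apart and both on the minus strand. Scn8a lies on chromosome 15, at 100869858 to 101045938. Scn2a and Scn3a were present together in 30 cells, against 27.8 expected from the product of their shares. Cells with many genes at 10 RPM add to any such count.

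RefSeq promoters (250 bases before to 50 after a start) matched 52 of the 73 members, with 81 sequences. The promoters of Scn2a and Scn8a are shown as those of the most widely found sodium genes with a match, at the first of 2 starts each. Both are on the plus strand of GRCm38.p6, at chr2:65620519-65620818 and chr15:100870395-100870694, with every CG in capitals.
Scn2a: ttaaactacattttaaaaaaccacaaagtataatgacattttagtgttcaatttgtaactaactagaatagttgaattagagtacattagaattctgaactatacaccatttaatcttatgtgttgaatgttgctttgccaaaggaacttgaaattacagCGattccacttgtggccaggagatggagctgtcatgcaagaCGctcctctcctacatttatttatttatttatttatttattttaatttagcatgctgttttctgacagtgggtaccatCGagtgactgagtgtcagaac
Scn8a: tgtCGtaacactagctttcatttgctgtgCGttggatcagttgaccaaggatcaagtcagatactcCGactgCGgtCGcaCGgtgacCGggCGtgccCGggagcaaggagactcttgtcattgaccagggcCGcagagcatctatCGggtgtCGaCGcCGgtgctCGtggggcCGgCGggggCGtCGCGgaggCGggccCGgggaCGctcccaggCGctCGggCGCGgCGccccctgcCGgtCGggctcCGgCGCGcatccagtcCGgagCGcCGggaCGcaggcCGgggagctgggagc
The Scn2a window held 3 CG dinucleotides (GC content 33%) and the Scn8a window 38 (GC content 70%). The window at the other start held 9 CG for Scn2a (GC content 47.7%) and 12 for Scn8a (53.3%), so that the difference between the genes depends on the start, and reads from 3′ ends cannot tell which start was used. Over the members as a whole, the median ratio of observed to expected CG was 0.515, against 0.772 for the promoters of all listed genes and 0.384 for all RefSeq promoters. At least 1 promoter with a ratio of 0.6 or more was found for 28 of 52 members (53.8%) and for 81.5% of listed genes. The motif TATAAA, searched on both strands, occurred in 3 of 81 member promoters (3.70%), in 7.25% of those of listed genes and in 13.6% of all. These are properties of the windows and were not tested.

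Sodium channel beta subunits, which tether the pore and change its gating, were less evenly found. Scn3b was present in 28 cells, with a median of 19.9 RPM and a highest of 542 RPM. Scn2b was present in 13 cells, with a median of 2.01 RPM, and its highest value of 958 RPM stood on 201 reads in cell 40, the next cell being at 175 RPM. Over the 32 cells with at least 50 RPM in the 3 genes, Scn3b led in 21, or 18 per exonic length. Scn3b and Scn2a were present together in 22 cells, against 22.9 expected from their shares, and Scn2b and Scn2a in 10, against 10.6.

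**Figure D4:**
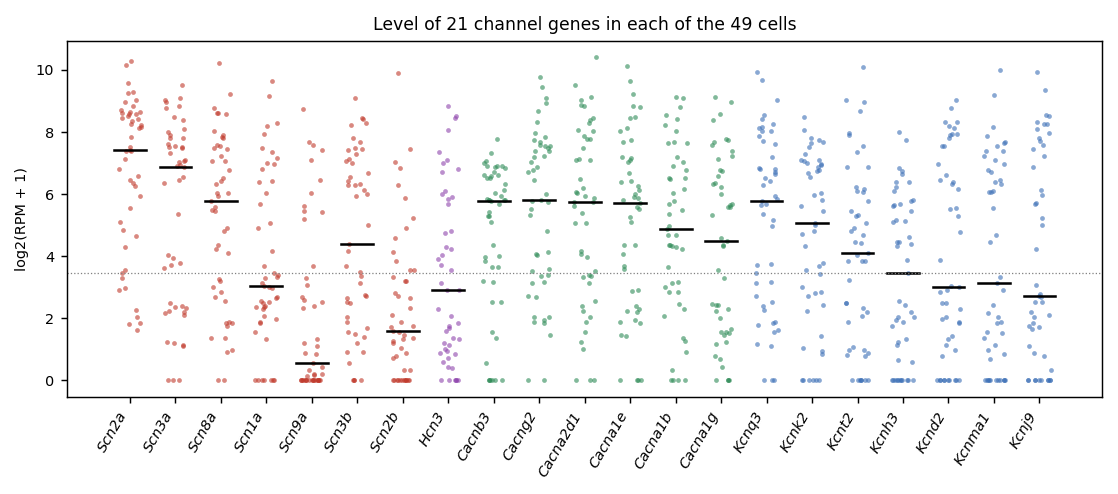
Level (log2(RPM + 1), vertical) of 21 channel genes in each of the 49 cells (points), with the median (bar) and the 10 RPM limit (dotted); red, sodium; purple, Hcn; green, calcium; blue, potassium. Scn2a has the highest median of those shown (170 RPM) and is above 0 in every cell, while Scn9a has a median of 0.486 RPM.

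Of the Hcn genes, Hcn3 (chromosome 3, 89146074 to 89160196) was present in 22 of 49 cells. Its lowest value was 0, its median 6.47 RPM and its highest 452 RPM (cell 4, pool 4), the next cell being at 369 RPM. Exons of Hcn3 overlap those of Pklr on the other strand, and whether counting used strand is not given in the sources used here. The same limit holds for all 30 members with such an overlap, among them Kcnh3 (Mcrs1), Kcnh7 (Gca) and Kcnj9 (Gm36937). Pex5l (TRIP8b), the accessory subunit that places Hcn channels in dendrites, was present in 20 cells, with a lowest value of 0, a median of 2.43 RPM and a highest of 500.1 RPM.

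Among calcium channel pore genes, Cacna1e and Cacna1b of the high-voltage-activated Cav2 group were the most widely found. Cacna1e (R-type) was present in 34 cells, with a median of 51.2 RPM and a highest of 1120 RPM. Cacna1b (N-type, at presynaptic terminals) was present in 33 cells, with a median of 28.4 RPM and a highest of 564 RPM. Cacna1a (P/Q-type, also presynaptic) was present in 23 cells, with a median of 9.30 RPM and a highest of 458 RPM. Of the T-type genes, which open near rest and drive bursts, Cacna1g was present in 28 cells, Cacna1i in 10 and Cacna1h in 9. Cacna1c (L-type) was present in 15 cells, with a median of 3.60 RPM and a highest of 238 RPM, and Cacna1d was not analysed here. No gene led throughout: over 42 cells with at least 50 RPM, Cacna1e led in 11, Cacna1b in 10, and Cacna1a and Cacna1g in 8 each, while per exonic length Cacna1b led in 12 and Cacna1e in 6.

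The accessory subunits of calcium channels were dominated by few genes. Cacnb3, a cytoplasmic beta subunit that brings the pore to the membrane, was present in 36 cells and was the most widely found member after Scn2a. Its values varied the least of all members between cells (coefficient of variation 0.925), with a lowest of 0, a median of 53.8 RPM and a highest of 217 RPM. Cacnb4 was present in 29 cells, with a median of 34.3 RPM and a highest of 575 RPM, and Cacnb1 and Cacnb2 were present in 22 and 6 cells. Cacna1a and Cacnb4 were present together in 18 cells, against 13.6 expected from their shares, a count to which cells with many genes at 10 RPM add. Among alpha2delta subunits, which carry channels to the terminal, Cacna2d1 was present in 34 cells, with a median of 53.2 RPM and a highest of 1370 RPM, while Cacna2d3 and Cacna2d2 were present in 11 and 7. Over the 33 cells with at least 50 RPM in these 3 genes, Cacna2d1 led in 25, also per exonic length.

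The Cacng genes listed encode mainly AMPA receptor subunits of the TARP group. Cacng2 (stargazin) was present in 35 cells, with a lowest value of 0, a median of 54.9 RPM and a highest of 865 RPM. Cacng4 was present in 32 cells, with a median of 30.04 RPM and a highest of 823 RPM. Cacng3 and Cacng5 were present in 15 and 5 cells. Over 37 cells with at least 50 RPM, Cacng2 led in 21 and Cacng4 in 12, but in 15 each per exonic length.

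The voltage-gated potassium pore genes were numerous and thinly spread. Of the 18 listed, a cell held a median of 6 and at most 14 at 10 RPM, and 4 were present in at least 25 cells, Kcnq3 and Kcnh3 among them. Kcnq3 is a subunit of the M-channel, which stays open near threshold and restrains repetitive firing. Kcnq3 was present in 33 cells, with a lowest value of 0, a median of 53.7 RPM and a highest of 968 RPM. Kcnh3 was present in 25 cells and Kcnh7 in 23, both of the EAG family, and the highest values were 253 and 1066 RPM. Exons of both overlap a gene on the other strand, as do those of Hcn3. By RPM, Kcnh7 led the 18 genes in 11 of 47 cells and Kcnd2 in 5. Per exonic length, with which reads from 3′ ends need not scale, Kcnh7 led in none and Kcnd2 in 13.

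None of the listed genes of fast potassium currents, of the Kv1 family or of silent subunits was present in at least 25 cells. Kcnd2 (Kv4.2, the A-type current of dendrites) was present in 23 cells, with a median of 7.06 RPM and a highest of 522 RPM, and its relative Kcnd3 in 3 cells. Kcnd2 was present with its accessory subunit gene Kcnip4 in 13 cells, against 9.86 expected from their shares, and with Dpp6 in 15, against 14.6. Here too, cells with many genes at 10 RPM add to the counts. In the Kv1 family (low-threshold channels of axons) Kcna6 was present in 21 cells, Kcna2 in 16, Kcna4 in 8 and Kcna1 in 7. Of the Kv3 genes, which allow fast spiking, Kcnc1 was present in 18 cells and Kcnc2 in 3, and these 3 cells all held Kcnc1. Among silent subunits, which form channels only with other subunits, Kcnf1 was present in 18 cells, Kcnv1 in 16 and Kcng1 in 9.

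Potassium channels that voltage does not gate, or not alone, included some of the most widely found members. Kcnk2 (TREK-1, a leak channel opened by stretch and lipids) was present in 32 cells, with a lowest value of 0, a median of 32.9 RPM and a highest of 354 RPM. Kcnt2, a sodium-activated channel gene, was present in 29 cells, with a median of 16.2 RPM and a highest of 1086 RPM. Kcnma1, the BK channel opened by calcium and voltage together, was present in 23 cells, with a median of 7.75 RPM and a highest of 1016 RPM, and Kcnn1 of the SK family in 19. The inward rectifier gene Kcnj9 (GIRK3, opened by G proteins) was present in 22 cells, with a median of 5.60 RPM and a highest of 981 RPM. Among accessory subunits Kcnip2, a partner of Kv4 channels, was present in 24 cells, with a highest value of 735 RPM. Kcnq1ot1, a noncoding RNA transcribed antisense to Kcnq1 and known from imprinting, is no channel gene but fell under the symbol rule. It was present in 31 cells, with a median of 30.9 RPM and the highest value of any member (2312 RPM). The noncoding Kcnmb4os2, whose gene overlaps Kcnmb4 on the other strand, was present in 6 cells, 5 of which held Kcnmb4.

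The genes that serve these channels were found in more cells than the channels. Of a list of 21 genes for channel anchoring, accessory proteins and ion pumps, 19 were listed and 10 of them were present in at least 25 cells, with a median of 29 cells per gene against 18 for the members. Ank3 (ankyrin-G, which anchors sodium channels at the initial segment) was present in 48 cells, with a median of 281 RPM. Fgf13, a protein that binds the tail of sodium channels, was present in 38 cells, with a median of 150 RPM. Of 21 pairs of subunits or partners, 18 could be counted, and in 16 the genes were present together in more cells than the product of their shares gives. Cells with many genes at 10 RPM add to every pair, and the same count was not made over pairs of other listed genes. At a limit of 100 RPM 15 pairs were above that number. At 1 read 10 of 12 were, as the 6 pairs of Scn2a, which had a read in all 49 cells, cannot exceed it.

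Cells with at least 2 of the 3 excitatory markers (Slc17a7, Neurod2, Neurod6) differed from the other cells in some channel genes, which were chosen after their values were seen. The 35 cells with these markers were deeper (median 2076810 reads) than the 14 without (814366 reads), and 8 of the 14 and 9 of the 35 had at least 2 inhibitory markers. The share of cells with the gene was at least 30 percentage points higher in the first set for 6 of 73 members (8.22%), close to the 9.47% of listed genes, and at least 30 points lower for 2 (2.74%, against 0.466%). Kcnj9 was present in 22 of 35 cells with the markers (62.9%, interval 44.9–78.5%), with a lowest value of 0, a median of 51.1 RPM and a highest of 981 RPM. It was present in none of the 14 cells without them (interval 0–23.2%), where its median was 0.943 RPM and its highest value 7.35 RPM. Of all listed genes other than the markers, only 2, Kcnj9 included, had so large a difference. As none of the 14 reached 10 RPM, a split of these cells by pool or depth could only give 0. In cells of at least 1000000 reads the counts were 17 of 25 and 0 of 4. With a limit of 100 RPM for the markers they were 14 of 21 and 8 of 28. Whether depth or cell class carries the difference was not tested.

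Further members were picked by the same threshold of 30 percentage points. Members that much higher (8.22%) were no more frequent than such listed genes (9.47%), while members that much lower were 2.74%, against 0.466%. The median difference was 4.29 points over members and 10 over listed genes. Kcnh3 was present in 22 of 35 cells with and in 3 of 14 without the markers. Kcnv1 was present in 15 of 35 and 1 of 14 cells, Kcnn1 in 17 of 35 and 2 of 14, and Kcnab1 in 13 of 35 and 1 of 14. The opposite held for Kcnip1, an accessory subunit of Kv4 channels, present in 6 of 35 and 7 of 14 cells. With a limit of 100 RPM for the markers, Kcnab1 was present in 28.6% of cells in both sets, Kcnn1 in 9 of 21 and 10 of 28, and Kcnh3 in 14 of 21 and 11 of 28. Kcnv1 was then present in 12 of 21 and 4 of 28 cells, and Kcnip1 in 1 of 21 and 12 of 28.

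**Figure D5:**
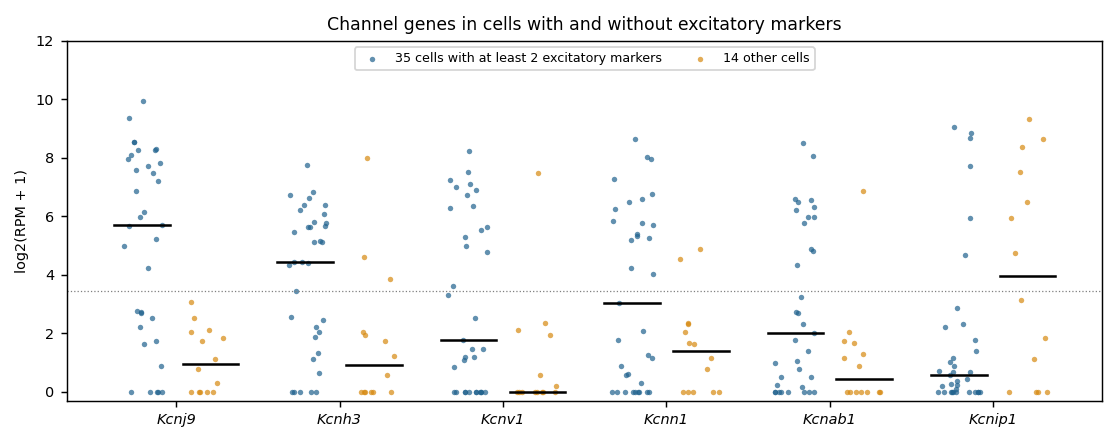
Level (log2(RPM + 1), vertical) of 6 channel genes in the 35 cells with at least 2 excitatory markers at 10 RPM (blue) and the 14 other cells (orange), with medians (bars) and the 10 RPM limit (dotted). Kcnj9 exceeds the limit in 22 blue cells and in 0 orange cells, whereas Kcnip1 does so in 6 blue and 7 orange cells.

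The rarest members were confined to few cells, whose markers are given here as a description. Kcnc2, Kcnd3, Kcnh5, Kcnj6 and Kcnj10 each reached 100 RPM in only 2 cells, so that they were listed through the cells described here. At least 2 inhibitory markers were found in 17 of the 49 cells. Kcnc2 was present in cells 1, 32 and 39, at 73.3, 300 and 121 RPM, and each of them had at least 3 inhibitory markers and at most 1 excitatory marker. Kcnd3 was present in cells 22, 39 and 47, at 366, 68.1 and 289 RPM, each with at least 2 inhibitory markers. Cell 22 also had 3 astrocyte markers. Other rare members showed no such pattern. Kcnh5 was present in cells 5, 10, 12 and 30, which had 1, 2, 5 and 0 inhibitory markers. Kcnj6 was present in cells 2, 9, 20 and 33, which had 3, 1, 0 and 2 inhibitory markers. Kcnj10 (Kir4.1, the main potassium channel of astrocytes) was present in cells 7, 12, 41 and 49, at 179, 65.6, 311 and 75.4 RPM, and these cells had 1, 4, 3 and 0 astrocyte markers. Cell 7 also had 3 oligodendrocyte lineage markers. In cell 49 the value stood on 17 reads, against 385 in cell 41 of the same pool (4.42%), and fell under the 5% filter. Cell 41 had the highest value of both Kcnj10 and its neighbour Kcnj9, whose genes lie 11.9 kb apart on chromosome 1. The part of astrocyte RNA in these values was not tested.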

How the data were processed

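Cortical neurons that took up FT at E13.5 were collected singly at P7. The authors made cDNA with a SMART-Seq v4 3′ DE kit, sequenced it in 5 library pools of up to 12 cells, aligned reads to GRCm38 (mm10) by STAR, used HTSeq for counting and scaled the counts to RPM; versions and annotation are not given in the sources used here. The deposited table holds RPM, not divided by gene length. Since 1 read has a fixed RPM value in each cell, reads were recovered, and 100% of values were whole within 0.01 read. In a simulated table of 9020 genes and 49 cells, recovery was right for 441980 of 441980 values.

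Members and lists were chosen with earlier results of these data known. A gene was present in a cell from 10 RPM, and a cell was counted for a marker list from 2 of its genes. Shares have exact Clopper-Pearson intervals at 95%, which take the cells as independent draws and cover the counting of cells only. They do not cover differences between animals, to which the labels do not tie the cells. The kit carries no molecular identifiers, so levels are reads and not molecules. The 49 cells are 1 sample of 1 condition, so no test was run. Named genes were the leading member of each family, all sodium and Hcn members, the 10 most widely found, the 5 with the highest value, noncoding members, and the genes of the pair and partner lists; other genes were named after their values were seen. Some genes that this rule names are not reported here. Genes were matched to GENCODE M21, where 30 members overlap a gene on the other strand, and promoters to RefSeq on GRCm38.p6. Alternatives were other limits (1 read, 10 reads, 1 RPM, 100 RPM), levels per kb of exon, thinning to 300000 reads, TMM scaling, a filter against exchanged reads, and leaving out each pool or marked cells. The tools were edgeR 4.0.16 (TMM only) in R 4.3.3, and scipy 1.17.1, pandas 2.3.3, numpy 2.4.6 and matplotlib 3.10.9 in Python 3.11.15.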

Additional observations from a re-analysis of the deposited data

How the results depend on the processing

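Counts of present genes depended on the limit. The median number of members per cell was 28 at 10 RPM, 51 at 1 read, 43 at 1 RPM and 12 at 100 RPM, and the members in at least 25 cells numbered 21, 57, 48 and 2. Without values under 5% of the most reads in another cell of the pool (which kept 1176 of 1355 member values) they numbered 13. With no such filter, 52 members were present in at least 12 cells, and with it 49. The median share of cells per member was 36.7% at 10 RPM, 69.4% at 1 read, 61.2% at 1 RPM and 12.2% at 100 RPM. Pairs above the number expected from their shares were 16 of 18 at 10 RPM, 15 of 18 at 100 RPM and 10 at 1 read, where 6 pairs cannot exceed it because Scn2a had a read in every cell. Without accessory and noncoding genes the median summed level of all members was 2341 RPM; voltage-gated pore genes summed to 730 RPM for potassium, and pore genes to 293 RPM for calcium. Of the 10 members with the highest mean RPM, 3 remained among the 10 highest per kb (Cacng2, Kcnj9 and Scn2a). Reads from 3′ ends need not scale with exonic length, so neither order is the corrected one. Leaving out each pool gave medians of 27 to 29 members per cell. The 20 cells with fewer than 2 markers of every inhibitory or glial list had a median of 25.5 members. The 48 cells other than cell 12 had a median of 27.5. Leaving out such cells was chosen after seeing the data. Thinning to 300000 reads left out 4 cells. No paired analysis was possible because the study has 1 condition here and no result comes from a test.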
